A study of Mus musculus with 2 samples.

Results

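Cytochrome P450 genes of hepatocytes were followed in single-cell transcriptomes of mouse liver tumours, 10 of the 32285 features in each count matrix: Cyp2e1, Cyp1a2, Cyp3a11, Cyp2c29, Cyp2a4, Cyp2a5, Cyp2d26, Cyp2f2, Cyp7a1 and Cyp7b1. They were taken by name, not by a cut on their levels, but earlier results of these data were known. They were read in barcodes that carried at least 20 unique molecular identifiers (UMIs) of Alb, Apoa1 and Ttr together, the hepatocyte gate. There were 2 libraries, 1 from tumours of Crtc2-/- mice and 1 from tumours of Crtc2+/+ mice. The Crtc2 protein is a coactivator that works with CREB, a factor that responds to cAMP. Mice of both genotypes had received the liver carcinogen diethylnitrosamine (DEN) by intraperitoneal injection, 25 mg/kg, when 2 weeks old. They were then fed a diet that causes non-alcoholic steatohepatitis (NASH) between weeks 8 and 26, so that no library came from an untreated liver or from a liver without tumours. Tumour cells were run on a 10x Genomics controller with 3' chemistry, which tags transcripts near their 3' end. The labels do not say how many animals or tumours went into a library, nor whether the deletion was in all cells of the mouse.

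Each genotype had 1 library, so the differences have no replicate check and none was tested. Genotype cannot be told apart from the animal, the tumour or the library. All intervals are 95% intervals that cover counting error only, since cells of 1 library are not replicates. Levels are in CPM, counts of a gene scaled to the UMI total of the gate. Log2 ratios were taken after adding 10 CPM to both sides, which pulls the ratios of low genes towards 0. A gene is called higher or lower where that log2 ratio was at least 1 either way, a 2-fold difference, and had at least 20 UMIs over both sides.

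P450 enzymes are haem proteins of the endoplasmic reticulum that insert oxygen into drugs, carcinogens, steroids and sterols, with electrons from P450 reductase and cytochrome b5. In a healthy mouse liver lobule their genes are zoned: Cyp2e1, Cyp1a2, Cyp3a11 and Cyp2c29 are expressed mainly around the central vein, Cyp2f2 around the portal tract. Cyp2e1 oxidises ethanol and activates nitrosamines, DEN among them. Cyp7a1 and Cyp7b1 act on cholesterol and oxysterols in the classical and the alternative route of bile acid synthesis.

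By log2 ratio with 10 CPM added, Cyp2a4 was the highest and Cyp2a5 the lowest of the 10 genes in the Crtc2-/- against the Crtc2+/+ gate. They are near-identical copies, so their promoters are shown first. Both genes lie on the plus strand of chromosome 7 (GRCm38), Cyp2a4 (ENSMUSG00000074254) from 26307169 to 26315088 and Cyp2a5 (ENSMUSG00000005547) from 26835305 to 26843548, 520 kb apart. The promoter table (RefSeq, GRCm38.p6) held 8 of the 10 genes, and Cyp7a1 and Cyp7b1 are named only. The 250 bases before the RefSeq start of Cyp2a4 (chr7:26306942-26307191) and of Cyp2a5 (chr7:26835089-26835338) are written 5' to 3', with capitals at the 4 aligned bases at which they differ.
Cyp2a4: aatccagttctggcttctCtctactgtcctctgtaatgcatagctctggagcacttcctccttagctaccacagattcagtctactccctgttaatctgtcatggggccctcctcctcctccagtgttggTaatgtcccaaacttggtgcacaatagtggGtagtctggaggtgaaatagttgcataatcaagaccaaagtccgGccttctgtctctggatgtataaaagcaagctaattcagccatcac
Cyp2a5: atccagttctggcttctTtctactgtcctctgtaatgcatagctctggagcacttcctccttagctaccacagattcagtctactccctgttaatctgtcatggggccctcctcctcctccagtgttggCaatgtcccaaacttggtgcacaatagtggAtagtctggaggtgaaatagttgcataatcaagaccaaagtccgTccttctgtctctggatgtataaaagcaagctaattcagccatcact
Over the whole 300-base windows, which run 50 bases past the start, 294 of 299 aligned bases (98.3%) were the same. Their annotated transcripts were also close, with 1708 of 1738 aligned bases (98.3%) the same. Of the 411 stretches of 90 bases in the last 500 bases of the Cyp2a4 transcript, 40 (9.73%) occurred unchanged in Cyp2a5, and in the other direction 7 of 411 (1.70%) did. The sources used here do not say how reads matching both genes were counted, so part of the smaller gene's count in either library can come from the larger one's reads.

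The promoter of Cyp2e1 is given as that of the pericentral gene with the sharpest contrast between the libraries. Cyp2e1 (ENSMUSG00000025479) spans 140763739 to 140774987 on the plus strand of chromosome 7, and its 250 bases before the RefSeq start (chr7:140763569-140763818) are written with TATAA in capitals.
Cyp2e1: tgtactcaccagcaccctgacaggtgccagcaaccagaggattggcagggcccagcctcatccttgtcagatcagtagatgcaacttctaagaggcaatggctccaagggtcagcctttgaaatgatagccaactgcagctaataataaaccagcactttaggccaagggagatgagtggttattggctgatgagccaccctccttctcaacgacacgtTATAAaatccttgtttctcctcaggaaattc
The letters TATAA, searched on both strands, occurred in 7 of the 8 P450 windows, every one but that of Cyp2f2, against 24.9% of all 32851 windows of 300 bases. In Cyp2a4, Cyp2a5 and Cyp2e1 they began 28, 29 and 31 bases before the start. The full cAMP response element TGACGTCA, the sequence bound by CREB, was in 0 of the 8 windows and in 1.79% of all windows. Its shorter form TGACG, contained in the full one, was in 0 of 8 and in 20.8% of all. With only 8 windows, those of Cyp2a4 and Cyp2a5 nearly the same, these counts of 0 carry little information. A match of letters is a description and not a binding site.

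The hepatocyte gate held 239 Crtc2-/- barcodes (2.69% of those kept) and 270 Crtc2+/+ barcodes (2.89%), with medians of 11401 and 7619.5 UMIs. The whole libraries held 9242 and 9707 barcodes with 78040008 and 81487425 UMIs. All 16 further hepatocyte genes used as a check, such as Fgb, Ahsg and Apob, were present in both gates, at a summed 33557 CPM in the Crtc2-/- gate and 16543 CPM in the Crtc2+/+ gate. The gates differed in other ways. Spp1, a gene of bile duct cells and macrophages, stood at 6048 CPM in the Crtc2-/- gate and at 30645 CPM in the Crtc2+/+ gate, and the duct gene Sox9 at 139 and 362 CPM. Tm4sf4, another duct check gene, was at 1409 CPM in the Crtc2-/- and 1475 CPM in the Crtc2+/+ gate. The leukocyte gene Ptprc was at 224 CPM in the Crtc2-/- and 160 CPM in the Crtc2+/+ gate, and the median mitochondrial share was 1.78% and 4.88%. The 3 macrophage check genes went the other way from Ptprc, with sums of 95.5 CPM in the Crtc2-/- and 141 CPM in the Crtc2+/+ gate. A gate of another cell type was also passed by 54 Crtc2-/- and 79 Crtc2+/+ barcodes. Of these, 12 and 38 passed the cholangiocyte gate, 15 and 29 the macrophage gate and 28 and 3 the endothelial gate. The 3 endothelial check genes summed to 86.1 CPM in the Crtc2-/- and 40.4 CPM in the Crtc2+/+ gate. Dcn, Col1a1 and Lrat, which mark fibroblasts and stellate cells, were at 0 in both gates, while Rgs5 of the same list, a pericyte gene, was at 94.6 CPM in the Crtc2-/- and 613 CPM in the Crtc2+/+ gate. Xist was at 0 and transcripts of 4 Y-linked genes were counted in both. The part these differences play in the P450 values was not tested. Crtc2 itself was counted 13 times in the Crtc2-/- gate (4.10 CPM, 2.18 to 7.01) and 24 times in the Crtc2+/+ gate (9.70 CPM, 6.21 to 14.4). Over all kept barcodes it had 400 Crtc2-/- UMIs (5.43 CPM, 4.91 to 5.99) and 615 Crtc2+/+ UMIs (7.96 CPM, 7.34 to 8.61). The sources used here do not name the deleted stretch of Crtc2, and a 3' tag outside it does not check the label.

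Among hepatocyte-gate barcodes of the Crtc2-/- library, Cyp2e1, Cyp3a11, Cyp2a4 and Cyp2d26 were higher than in the Crtc2+/+ library, and Cyp2a5, Cyp2f2 and Cyp7b1 were lower. Cyp1a2 lay between the thresholds, and Cyp2c29 and Cyp7a1 had too few UMIs to be called. Of the 8 genes that reached 20 UMIs, 4 were thus at least 2-fold higher, where 4.21% of all 12342 genes measured were, and 3 were at least 2-fold lower, where 4.0% were. The genes were chosen with earlier results of these data known, so these counts are a description only. Cyp2e1 and Cyp3a11 reached 20 UMIs through the Crtc2-/- library alone, so that their place among the called genes follows from that filter. The 10 genes together gave 3692 UMIs (1164 CPM) in the Crtc2-/- gate and 1084 UMIs (438 CPM) in the Crtc2+/+ gate. At least 1 of them was seen in all but 67 of 239 Crtc2-/- barcodes (28.0% without) and all but 93 of 270 Crtc2+/+ barcodes (34.4% without).

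**Figure D1:**
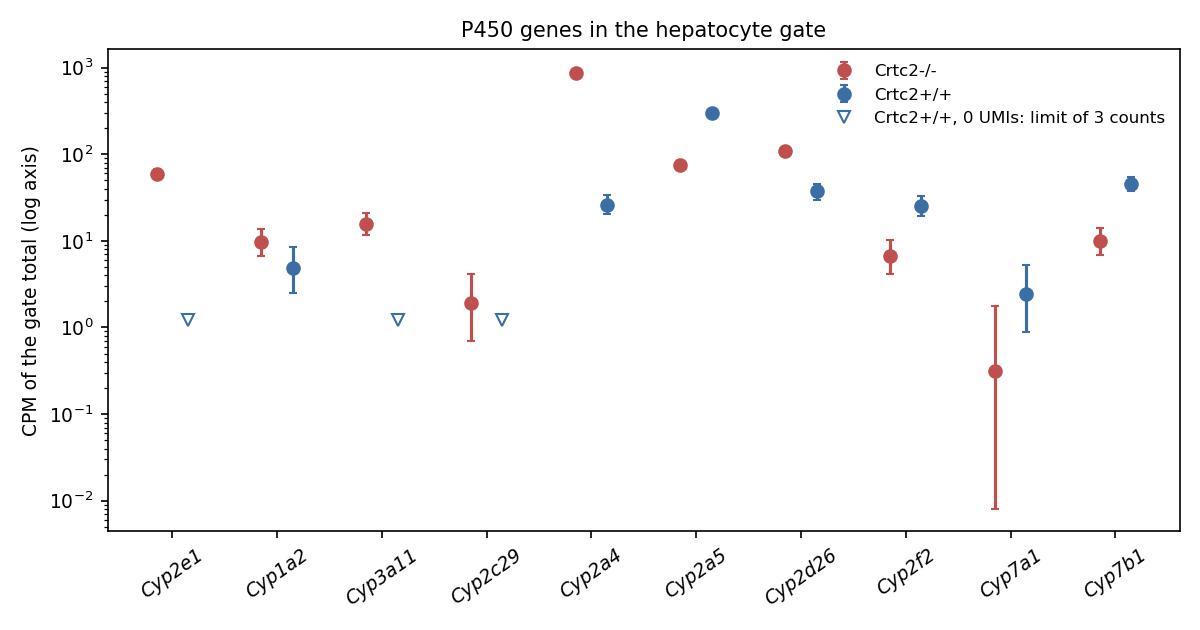
CPM of each P450 gene in the hepatocyte gate, on a log axis, with exact 95% Poisson intervals; red circles are the Crtc2-/- library, blue circles the Crtc2+/+ library, and open triangles mark the limit set by 3 counts where no UMI was found. Cyp2a4 stood at 876 and 26.3 CPM and Cyp2a5 at 74.4 and 296 CPM, and the triangles at Cyp2e1, Cyp3a11 and Cyp2c29 are all in the Crtc2+/+ library.

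Of the pericentral genes, Cyp2e1 had 188 UMIs in the Crtc2-/- gate, 59.3 CPM (51.1 to 68.4), and 0 UMIs in the Crtc2+/+ gate, where 3 counts would have been 1.21 CPM. With 3 counts in place of 0 it was at least 48.9-fold higher, and the exact interval of the ratio started at 39.4. The Crtc2-/- UMIs lay in few barcodes: 17 of 239 had any, the highest had 88, and 5 barcodes with at least 10 UMIs each held 88.3% of the total. Without the highest barcode the log2 ratio was 2.05 in place of 2.79. Outside the gate Cyp2e1 was rare in both libraries, since all kept barcodes together held 201 UMIs in the Crtc2-/- and 4 in the Crtc2+/+ library.

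Cyp3a11, a drug and steroid oxidase induced through the pregnane X receptor, followed with 50 UMIs in 16 Crtc2-/- barcodes (15.8 CPM, 11.7 to 20.8) and 0 in the Crtc2+/+ gate. It was at least 13.0-fold higher against 3 counts, and the exact interval started at 10.2. Cyp2c29, an arachidonic acid and drug oxidase, had 6 UMIs in 4 Crtc2-/- barcodes (1.89 CPM) and 0 in the Crtc2+/+ gate, and the exact interval of its ratio started at 0.919, so that it includes 1. Cyp1a2, an oxidase of arylamines controlled by the aryl hydrocarbon receptor, had 31 UMIs in 15 Crtc2-/- barcodes (9.77 CPM, 6.64 to 13.9) and 12 UMIs in 11 Crtc2+/+ barcodes (4.85 CPM, 2.51 to 8.47). Its ratio of 2.02 (1.01 to 4.31) corresponds to a log2 ratio of 0.41 with the added 10 CPM, short of the threshold. The sign of the Cyp1a2 difference was not stable: its log2 ratio was -0.39 with a gate of at least 100 UMIs and -0.47 with a gate of at least 1% of the UMIs of the barcode, and close to 0 per UMI of the check genes. Of the 4 genes taken here as pericentral, Cyp1a2 was the only one with a UMI in the Crtc2+/+ gate. Apart from Cyp2f2, the other P450 genes followed were not assigned to a zone.

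The 5 richest Cyp2e1 barcodes of the Crtc2-/- library also carried other pericentral transcripts. Beside 88, 27, 25, 13 and 13 UMIs of Cyp2e1 they held 9, 3, 5, 0 and 2 UMIs of Cyp3a11 and 2, 2, 2, 0 and 3 UMIs of Cyp1a2, in the same order of barcodes. None of them had a UMI of Cyp2a4 or Cyp2f2, and their depth ran between 6506 and 33846 UMIs. Over all 17 Cyp2e1 barcodes, 7 had Cyp3a11 and 6 had Cyp1a2, where the product of the single shares over the gate comes to 1.14 and 1.07 barcodes. Cyp2a4 was seen in 2 of the 17 and in 117 of the 222 barcodes without Cyp2e1, where the product for both genes comes to 8.46 barcodes. These products take no account of depth or of Alb, Apoa1 and Ttr UMIs, which differed between barcodes.

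**Figure D2:**
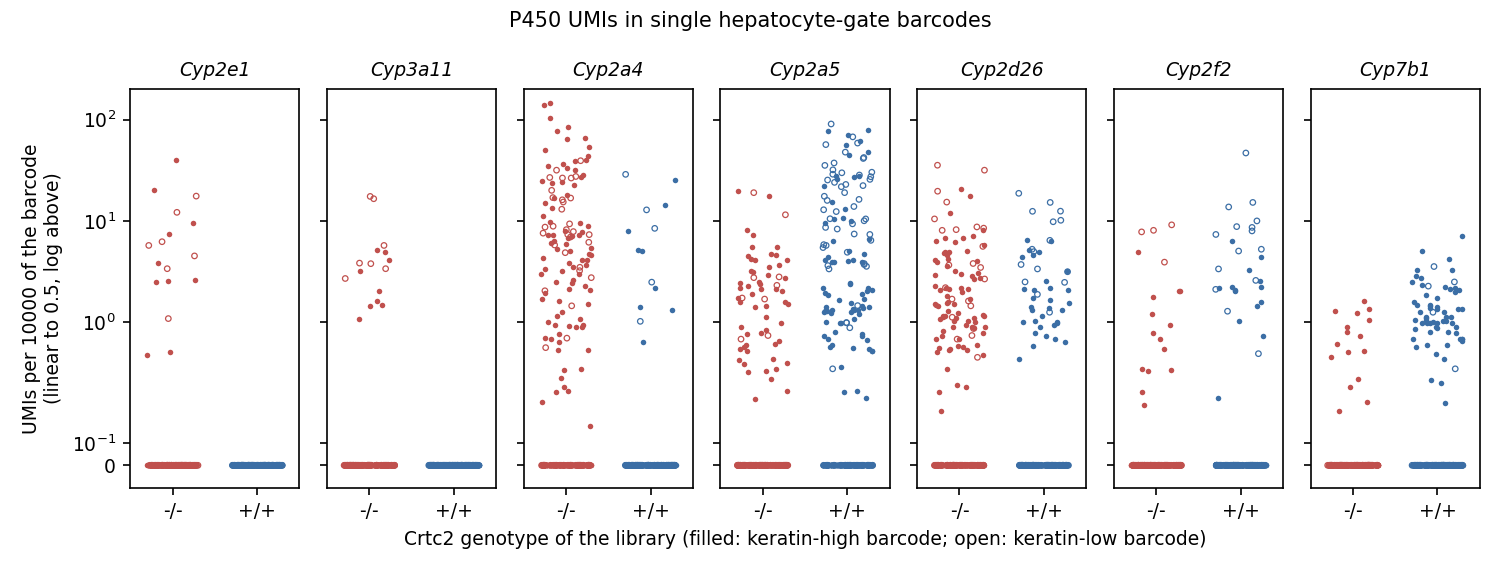
UMIs of 7 P450 genes per 10000 UMIs of each hepatocyte-gate barcode (vertical axis, linear to 0.5 and logarithmic above), with the Crtc2-/- library on the left and the Crtc2+/+ library on the right of each panel; filled points are keratin-high and open points keratin-low barcodes. Cyp2e1 and Cyp3a11 points above 0 are all in the Crtc2-/- library, in 17 and 16 barcodes, and Cyp2a4 and Cyp2a5 change places between the libraries.

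The Cyp2a pair differed in opposite directions. Cyp2a4, a steroid hydroxylase, had 2780 UMIs in 119 Crtc2-/- barcodes (876 CPM, 844 to 910) and 65 UMIs in 14 Crtc2+/+ barcodes (26.3 CPM, 20.3 to 33.5). The ratio was 33.4 (26.1 to 43.4), a log2 ratio of 4.61. Barcodes with at least 10 Cyp2a4 UMIs held most of the count. In the Crtc2-/- gate 31 such barcodes held 90.2% of it, and in the Crtc2+/+ gate 3 held 61.5%. Cyp2a5, a coumarin and nicotine hydroxylase, had 236 UMIs in 64 Crtc2-/- barcodes (74.4 CPM, 65.2 to 84.5) and 733 UMIs in 126 Crtc2+/+ barcodes (296 CPM, 275 to 318). Its ratio was 0.251 (0.216 to 0.291), a log2 ratio of -1.86. Both calls held under all 14 alternatives, with log2 ratios between 1.18 and 5.29 for Cyp2a4 and between -4.07 and -1.30 for Cyp2a5.

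Cyp2a4 gave 92.2% of the UMIs of the pair in the Crtc2-/- gate and 8.15% in the Crtc2+/+ gate. The exchange was also seen barcode by barcode. Of 38 Crtc2-/- barcodes with at least 10 UMIs of the pair, 25 had at least 90% of them from Cyp2a4, 1 from Cyp2a5 and 12 were mixed. Of 19 such Crtc2+/+ barcodes, 1 had at least 90% from Cyp2a4, 15 from Cyp2a5 and 3 were mixed. The values spread widely within each library: barcodes with a Cyp2a4 UMI had between 1 and 292 in the Crtc2-/- gate, with a median of 3, and between 1 and 20 in the Crtc2+/+ gate, with a median of 2. For Cyp2a5 the range was 1 to 33 in the Crtc2-/- gate and 1 to 44 in the Crtc2+/+ gate, with a median of 2 in both. Each UMI stands for 1 tagged transcript end, so the shares are of molecules and not per length. Cyp2a4 is expressed more in female than in male mouse liver, and Y-linked transcripts were present in both gates.

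**Figure D3:**
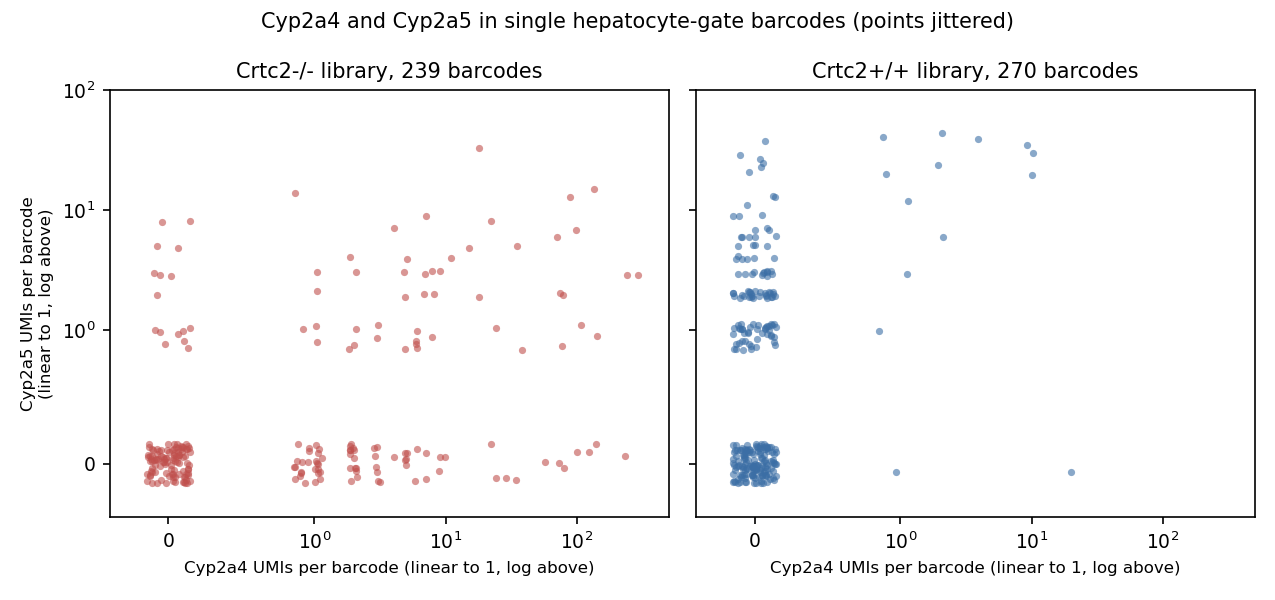
Cyp2a4 UMIs (horizontal axis) against Cyp2a5 UMIs (vertical axis) of single hepatocyte-gate barcodes, both linear to 1 and logarithmic above, with jitter; the Crtc2-/- library with 239 barcodes is on the left and the Crtc2+/+ library with 270 on the right. Crtc2-/- points spread along the Cyp2a4 axis up to 292 UMIs and Crtc2+/+ points along the Cyp2a5 axis up to 44 UMIs.

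Cyp2d26, a member of the Cyp2d family, had 347 UMIs in 102 Crtc2-/- barcodes (109 CPM, 98.2 to 122) and 92 UMIs in 48 Crtc2+/+ barcodes (37.2 CPM, 30.0 to 45.6). Its ratio was 2.94 (2.33 to 3.75), a log2 ratio of 1.34. The call ended in 5 of 14 alternatives. Per UMI of the 16 hepatocyte check genes the log2 ratio was 0.48, and in the gate of at least 100 UMIs it was 0.34.

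Cyp2f2, the periportal naphthalene oxidase, had 21 UMIs in 18 Crtc2-/- barcodes (6.62 CPM, 4.10 to 10.1) and 63 UMIs in 29 Crtc2+/+ barcodes (25.5 CPM, 19.6 to 32.6). Its ratio was 0.260 (0.151 to 0.432), a log2 ratio of -1.09. No Crtc2-/- barcode had more than 2 UMIs of it, whereas the highest Crtc2+/+ barcode had 15. The call did not hold in keratin-high barcodes, with a log2 ratio of -0.31, at a mitochondrial limit of 10%, with -0.28, without the highest barcode of each library, with -0.88, or with called doublets kept, with -0.98.

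Of the bile acid genes, Cyp7b1 had 32 UMIs in 16 Crtc2-/- barcodes (10.1 CPM, 6.90 to 14.2) and 113 UMIs in 66 Crtc2+/+ barcodes (45.7 CPM, 37.6 to 54.9). The ratio was 0.221 (0.144 to 0.330), a log2 ratio of -1.47. No barcode of either gate had more than 5 UMIs of it, so no single barcode set the level. The Cyp7b1 call held in 12 of 14 alternatives, with log2 ratios between -2.35 and -0.91. Cyp7a1, the rate-limiting enzyme of the classical route, had 1 UMI in the Crtc2-/- gate and 6 UMIs in 4 barcodes of the Crtc2+/+ gate, a ratio of 0.130 (0.00283 to 1.07) whose interval includes 1.

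Depth differed between the gates, so shares of barcodes with a UMI were also read after thinning each barcode to 1000 UMIs, which left out 6 Crtc2-/- and 18 Crtc2+/+ barcodes. Cyp2a4 was then seen in 27.5% of Crtc2-/- barcodes (21.8 to 33.7) and 1.98% of Crtc2+/+ barcodes (0.647 to 4.57), and in 49.8% and 5.19% without thinning. Cyp2a5 was seen in 5.58% of Crtc2-/- (3.004 to 9.35) and 23.4% of Crtc2+/+ barcodes (18.3 to 29.1), and in 26.8% and 46.7% without thinning. Among 2377 Crtc2-/- and 1791 Crtc2+/+ T cell-gate barcodes, which should lack both genes, thinned shares were 0.0841% and 0% for Cyp2a4 and 0.0421% and 0.0558% for Cyp2a5. Median depth was 4559.5 UMIs in Crtc2-/- and 4571 UMIs in Crtc2+/+ T cell-gate barcodes. For Cyp2e1, 6 of 233 thinned Crtc2-/- barcodes (2.58%, 0.951 to 5.52) and 0 of 252 Crtc2+/+ barcodes had a UMI, where 3 barcodes would have been 1.19%.

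Barcodes with both periportal Cyp2f2 and pericentral Cyp2e1 or Cyp1a2 were few, and in the Crtc2+/+ gate Cyp1a2 and Cyp2f2 shared barcodes more often than the product of their shares. At 1000 UMIs per barcode both were seen in 0 of 233 Crtc2-/- barcodes, where 3 barcodes would have been 1.29%. The same held for 0 of 252 Crtc2+/+ barcodes, where 3 would have been 1.19%. At full depth 2 of 239 Crtc2-/- barcodes (0.837%, 0.102 to 2.99) and 6 of 270 Crtc2+/+ barcodes (2.22%, 0.820 to 4.77) had both. The product of the single shares was 0.819% in the Crtc2-/- and 0.438% in the Crtc2+/+ gate. All 8 of these pairs were with Cyp1a2, and in the Crtc2+/+ gate 6 of the 11 Cyp1a2 barcodes held Cyp2f2 (product 1.18 barcodes). For Cyp2e1 and Cyp2f2 the product in the Crtc2-/- gate was 1.28 barcodes, so that the 0 found there carries no information, and the Crtc2+/+ gate had no Cyp2e1. Cyp2f2 was also seen with Cyp2a5, a gene not assigned to a zone here. In the Crtc2+/+ gate 25 of the 29 Cyp2f2 barcodes also held Cyp2a5 (product 13.5 barcodes), against 5 of 18 in the Crtc2-/- gate (product 4.82). None of these products takes account of depth or of Alb, Apoa1 and Ttr UMIs, which differed between barcodes. The 11 Crtc2+/+ barcodes with Cyp1a2 held between 114 and 1756 UMIs of Alb, Apoa1 and Ttr, in a gate that began at 20.

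The genes most like Cyp2e1 over barcodes could be ranked in the Crtc2-/- library alone, since the Crtc2+/+ gate had no Cyp2e1. Over 185 barcodes that passed no other gate, and among 6508 genes, Pearson's r of log counts per 10000 was 0.60 for Hpd, a tyrosine-degrading dioxygenase, 0.59 for Car3, a carbonic anhydrase, and 0.52 for Pon1, a serum esterase. Akr1c6 and Ttc39c followed at 0.50 each. These barcodes share 1 library and its range of depth. The 5 richest Cyp2e1 barcodes of the whole gate held 88.3% of the Cyp2e1 UMIs, and their part in r was not tested. For Cyp2f2 the highest mean r over both libraries, 0.32 for Scd1, was too weak to read in counts this sparse.

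Within each library the gate was split by Krt8 and Krt18, the keratins of liver epithelium, at 4 UMIs together. This gave 160 keratin-high and 79 keratin-low Crtc2-/- barcodes, and 182 and 88 Crtc2+/+ barcodes. Because the split counts UMIs, it also sorts by depth: median depth was 15860.5 UMIs in keratin-high and 2965 in keratin-low Crtc2-/- barcodes, and 10245.5 and 2013 in Crtc2+/+ barcodes. Ptprc was at 98.7 CPM in keratin-high and 1037 CPM in keratin-low Crtc2-/- barcodes, and at 89.96 and 537 CPM in Crtc2+/+ barcodes, and its part in the P450 values was not tested.

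The Cyp2a genes ran in opposite directions along this split in the libraries. Cyp2a4 was at 980 CPM (943 to 1018) in keratin-high and 207 CPM (166 to 255) in keratin-low Crtc2-/- barcodes, a ratio of 4.74 (3.83 to 5.93). In the Crtc2+/+ library it was at 15.3 CPM (10.5 to 21.6) in keratin-high and 85.6 CPM (58.9 to 120) in keratin-low barcodes, a ratio of 0.179 (0.106 to 0.300). The Crtc2+/+ keratin-low value rests on 33 UMIs in 5 barcodes, 20 of them in 1, and with the split at 2 keratin UMIs the log2 ratio was 0.82 in place of -1.92. Cyp2a5 was at 80.5 CPM in keratin-high and 35.3 CPM in keratin-low Crtc2-/- barcodes, a ratio of 2.28 (1.35 to 4.15), and at 212 and 752 CPM in Crtc2+/+ barcodes, a ratio of 0.282 (0.242 to 0.328). In the Crtc2-/- library the Cyp2a5 log2 ratio was 0.999, just under the threshold, and it was -0.32 with a gate of at least 100 UMIs, where that of Cyp2a4 was 0.75.

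Other genes were also spread unevenly over the split. Cyp2f2 was at 10.0 CPM in keratin-high and 109 CPM in keratin-low Crtc2+/+ barcodes, a ratio of 0.0922 (0.0519 to 0.159), and at 6.19 and 9.40 CPM in Crtc2-/- barcodes, a ratio of 0.658 (0.215 to 2.69). Cyp2d26 was at 27.3 CPM in keratin-high and 90.8 CPM in keratin-low Crtc2+/+ barcodes, and at 109 and 113 CPM in Crtc2-/- barcodes. Cyp7b1 was higher in keratin-high barcodes in both libraries, with 32 UMIs in keratin-high and 0 in keratin-low Crtc2-/- barcodes, and 51.7 and 13.0 CPM in Crtc2+/+ barcodes, a ratio of 3.98 (1.66 to 12.5). With the split at 4 keratin UMIs per 10000 its log2 ratio in the Crtc2-/- library was -0.0187 in place of 1.11. Cyp7a1 was counted 1 time in keratin-high and 0 times in keratin-low Crtc2-/- barcodes, and 6 and 0 times in Crtc2+/+ barcodes. In the Crtc2-/- library 2 of 8 measured P450 genes were called higher in keratin-high barcodes (Cyp2a4 and Cyp7b1), where 11.8% of all genes were, and 0 lower, where 11.2% were. Cyp7b1 reached 20 UMIs there through keratin-high barcodes alone. In the Crtc2+/+ library 1 of 5 was called higher (Cyp7b1), where 17.8% of all genes were, and 4 lower (Cyp2a4, Cyp2a5, Cyp2d26 and Cyp2f2), where 7.77% were. The counts of both libraries changed under alternative gates and settings, given in the last section.

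The genotype contrast was then read on either side of the split. Among keratin-high barcodes 4 genes were at least 2-fold higher in the Crtc2-/- library, where 4.37% of all genes were, and 2 lower, where 4.98% were. Among keratin-low barcodes 2 of 5 measured genes were higher, where 12.2% of all genes were, and 2 lower, where 6.61% were. On both sides Cyp2e1 reached 20 UMIs through the Crtc2-/- library alone, as did Cyp3a11 among keratin-high barcodes, so that their calls follow from that filter. Called lower among keratin-low barcodes were Cyp2a5 (15 Crtc2-/- and 290 Crtc2+/+ UMIs) and Cyp2f2 (4 and 42). Both reached 20 UMIs there only through the Crtc2+/+ library, so these calls depend on the filter too. Cyp2a4 was 64.0-fold higher (45.2 to 93.8) among keratin-high and 2.42-fold higher (1.60 to 3.72) among keratin-low barcodes. Cyp2a5 had ratios of 0.380 (0.321 to 0.447) and 0.0469 (0.0259 to 0.0786). Cyp2e1 had 166 Crtc2-/- and 0 Crtc2+/+ UMIs among keratin-high barcodes, where the exact interval of the ratio started at 33.9. Among keratin-low barcodes it had 22 Crtc2-/- and 0 Crtc2+/+ UMIs, with an interval starting at 4.96.

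**Figure D4:**
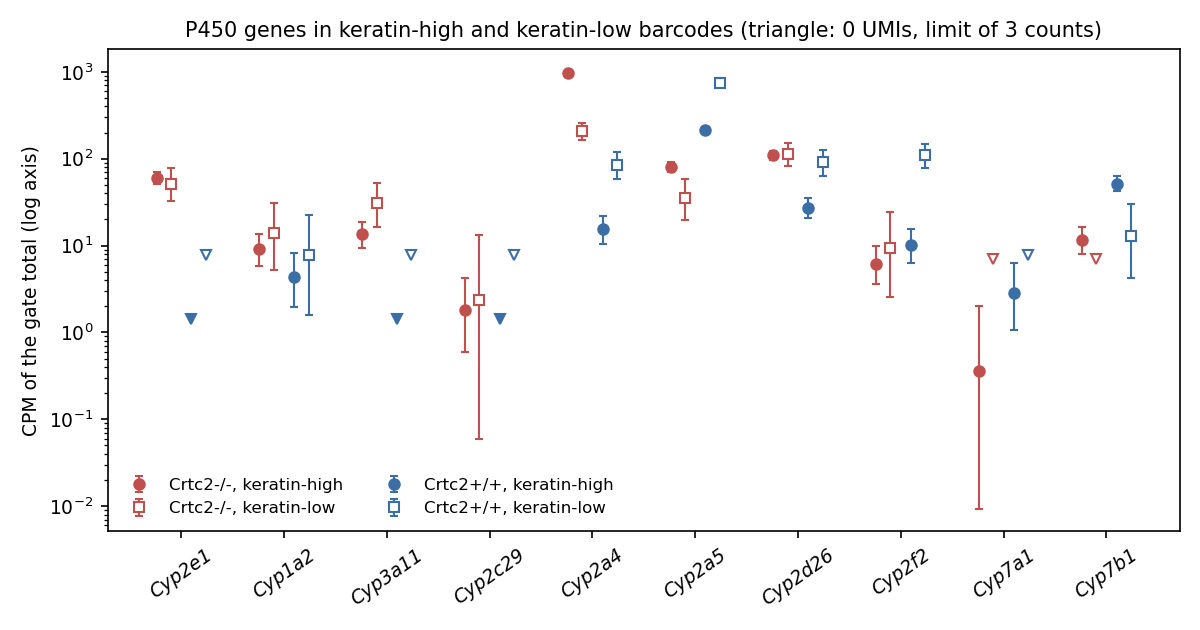
CPM of each P450 gene in keratin-high (filled circles) and keratin-low (open squares) hepatocyte-gate barcodes, on a log axis with exact 95% Poisson intervals, for the Crtc2-/- (red) and Crtc2+/+ (blue) libraries; triangles mark the limit of 3 counts where no UMI was found. Cyp2a4 is higher in keratin-high Crtc2-/- barcodes, 980 against 207 CPM, and Cyp2a5 and Cyp2f2 are higher in keratin-low Crtc2+/+ barcodes, at 752 and 109 CPM.

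Other cell gates served as a contrast for free RNA. In T cell-gate barcodes all 10 genes together gave 15 UMIs over 2378 Crtc2-/- barcodes (1.19 CPM) and 4 UMIs over 1793 Crtc2+/+ barcodes (0.439 CPM), against 1164 and 438 CPM in the hepatocyte gates. Compared with the T cell gate, 5 genes were called higher in the hepatocyte gate of the Crtc2-/- library (Cyp2e1, Cyp3a11, Cyp2a4, Cyp2a5 and Cyp2d26), where 18.1% of all genes were, and 0 lower, where 12.1% were. In the Crtc2+/+ library 5 were (Cyp2a4, Cyp2a5, Cyp2d26, Cyp2f2 and Cyp7b1), where 20.6% were, and 0 lower, where 11.9% were. None of these genes had more than 5 UMIs in a T cell gate, so they reached 20 UMIs through the hepatocyte gate and could only be called higher. Of the Cyp2a4 UMIs in all kept barcodes, 97.6% lay in the hepatocyte gate in the Crtc2-/- library and 75.6% in the Crtc2+/+ library, and of the Cyp2a5 UMIs 95.5% and 89.3%. The 4757 Crtc2+/+ macrophage-gate barcodes held 19 UMIs of Cyp2a4 and 25 of Cyp2a5, a split unlike the 65 and 733 of their hepatocyte gate. In the Crtc2-/- library the macrophage gate held 11 and 1, with 91.7% from Cyp2a4, near the 92.2% of its hepatocyte gate.

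Most Cyp7b1 UMIs lay outside the hepatocyte gate in both libraries. The hepatocyte gate held 3.902% of its 820 UMIs in the Crtc2-/- library and 20.8% of its 543 UMIs in the Crtc2+/+ library. Endothelial-gate barcodes held 189 UMIs (27.0 CPM, 23.3 to 31.2) in the Crtc2-/- and 168 UMIs (83.4 CPM, 71.3 to 97.03) in the Crtc2+/+ library, where 5 barcodes gave 64.9% of the Crtc2+/+ count. Plasmacytoid dendritic-gate barcodes held 74 UMIs (52.1 CPM, 40.9 to 65.4) and 8 UMIs (21.4 CPM, 9.26 to 42.3). In the Crtc2-/- library the order was cholangiocyte gate (120 CPM, 74.9 to 181, from 3 barcodes), plasmacytoid dendritic, endothelial and then hepatocyte gate. In the Crtc2+/+ library the order was endothelial, hepatocyte, plasmacytoid dendritic and cholangiocyte gate (3.91 CPM), and the intervals of the hepatocyte and plasmacytoid dendritic gates overlapped. Another 492 Crtc2-/- and 231 Crtc2+/+ UMIs lay in the remaining barcodes. These either passed no gate or passed more than 1 of the other cell gates, and the UMIs were not divided between them. Cyp7b1 was at 0.158 CPM in the Crtc2-/- and 0.219 CPM in the Crtc2+/+ T cell gate.

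**Figure D5:**
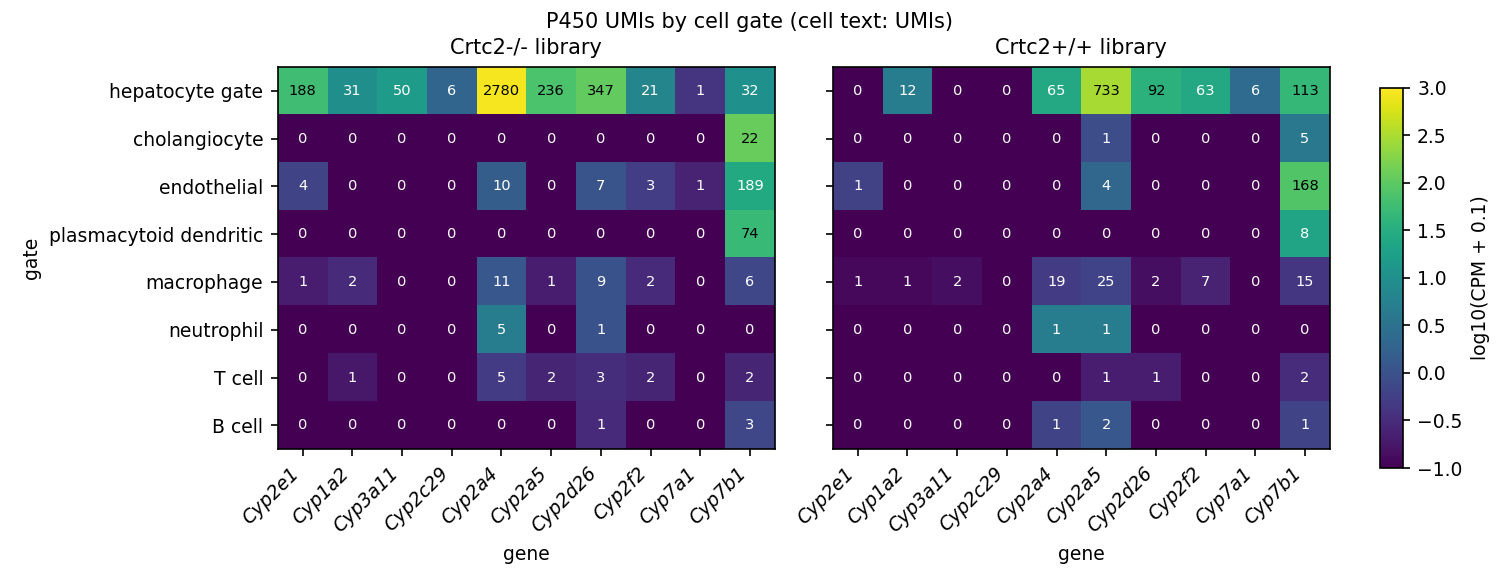
UMIs of each P450 gene (columns) in 8 cell gates (rows), printed in each cell, with colour for log10 of CPM plus 0.1, in the Crtc2-/- library on the left and the Crtc2+/+ library on the right. The top row, the hepatocyte gate, holds 2780 and 65 UMIs of Cyp2a4 and 236 and 733 of Cyp2a5, and for Cyp7b1 the endothelial gate holds more, 189 and 168 UMIs.

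Of 90 other genes with a P450 symbol, 34 were measured in the hepatocyte gate. Compared with the Crtc2+/+ gate, 7 were at least 2-fold higher in the Crtc2-/- gate (4.21% of all genes) and 6 lower (4.0% of all genes), with a median log2 ratio of 0.03, beside -0.05 over all genes. Among keratin-low barcodes 14 were measured, of which 1 was higher (12.2% of all genes) and 6 lower (6.61% of all genes). Their median was -0.86, beside 0.16 over all genes. Cyp2c68 had 422 Crtc2-/- and 6 Crtc2+/+ UMIs, a ratio of 54.9 (25.0 to 150). Cyp2j5, an epoxygenase of arachidonic acid, had 27 and 439 UMIs, a ratio of 0.0480 (0.0313 to 0.0708). Cyp4a12a, a fatty acid hydroxylase higher in male mice, had 2 UMIs in the Crtc2-/- and 149 in the Crtc2+/+ gate, a ratio of 0.0105 (0.00126 to 0.0385), and Cyp4f14 had 37 and 327. P450 genes thus lay on both sides.

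Zonation genes other than the 10 were measured alongside. Of 14 measured periportal genes 6 were called higher in the Crtc2-/- gate (4.21% of all genes) and 1 lower (4.0%), with a median log2 ratio of 0.82. Among keratin-low barcodes the direction turned, with 0 of 7 measured genes higher (12.2% of all genes) and 2 lower (6.61%). Their median was -0.63, beside 0.16 over all genes. Hal, a histidine-degrading enzyme, had 151 Crtc2-/- and 3 Crtc2+/+ UMIs, a ratio of 39.3 (13.2 to 193), and Cps1, the entry enzyme of the urea cycle, was at 143 and 49.7 CPM. Of 10 measured pericentral genes 2 were called higher (4.21% of all genes) and 1 lower (4.0%). Higher were Lect2 with 123 Crtc2-/- and 0 Crtc2+/+ UMIs and Rgn with 570 and 11, and Aldh1a1 was lower with 537 and 2212. Lect2 passed the minimum of UMIs through the Crtc2-/- library alone, so it could only be called higher. Hal and Rgn, with 3 and 11 Crtc2+/+ UMIs, also passed it only through the Crtc2-/- library, so their calls depend on that filter. Among keratin-low barcodes 2 of 7 pericentral genes were higher (12.2% of all genes) and 2 lower (6.61%). Glul, the glutamine synthetase next to the central vein, was at 42.9 CPM in the Crtc2-/- and 44.8 CPM in the Crtc2+/+ gate. Periportal Cyp2f2 was lower in the Crtc2-/- gate while 6 of the other periportal genes were higher there, though not among keratin-low barcodes. The summed level of the 16 hepatocyte check genes was also higher in the Crtc2-/- gate, and its part in these counts was not tested.

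Partners and regulators of P450 enzymes were measured as well. Of 10 genes for electron transfer and haem synthesis 2 were called higher in the Crtc2-/- gate (4.21% of all genes) and 0 lower (4.0%), with a median log2 ratio of 0.29. Among keratin-low barcodes 0 of 9 were higher (12.2% of all genes) and 2 lower (6.61%), with a median of -0.38, beside 0.16 over all genes. Hmox1, haem oxygenase, was at 81.3 CPM in the Crtc2-/- and 24.6 CPM in the Crtc2+/+ gate, and Por, P450 reductase, at 59.3 and 71.5 CPM, a ratio of 0.829 (0.671 to 1.02). Of 17 measured nuclear receptors and factors that act on P450 genes 3 were called higher (4.21% of all genes) and 0 lower (4.0%). Among keratin-low barcodes 3 of 10 were higher (12.2% of all genes) and 1 lower (6.61%). The 3 in the whole gate were Nr0b2, the small heterodimer partner, with 168 Crtc2-/- and 10 Crtc2+/+ UMIs, Hnf4a with 195 and 78.8 CPM, and Cebpb with 363 and 156 CPM. Nr1i3, the constitutive androstane receptor, had 22 Crtc2-/- and 2 Crtc2+/+ UMIs, a ratio of 8.58 (2.11 to 75.3), which did not reach the threshold with 10 CPM added. Of 14 measured bile acid genes 0 were called either way, near the shares of all genes (4.21% higher and 4.0% lower). Among keratin-low barcodes 0 of 5 were higher (12.2% of all genes) and 2 lower (6.61%). Cyp8b1 had 8 Crtc2-/- and 33 Crtc2+/+ UMIs, a ratio of 0.189 (0.0755 to 0.418), with a log2 ratio of -0.90.

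Genes with a sex bias in mouse liver did not follow 1 direction. Of 5 measured male-biased genes, 3 were called higher in the Crtc2-/- gate (4.21% of all genes) and 1 lower (4.0%). Among keratin-low barcodes 1 of 4 was higher (12.2% of all genes) and 1 lower (6.61%). Mup20, a urinary protein, was at 4169 CPM in the Crtc2-/- and 308 CPM in the Crtc2+/+ gate, while Cyp4a12a was lower as above. Of 2 measured female-biased genes 1 was called higher, Cyp2b9 with 39 Crtc2-/- and 2 Crtc2+/+ UMIs.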

How the data were processed

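Each library was deposited as a matrix of raw UMI counts for genes by barcodes. The file headers give Cell Ranger 7.1.0 as the writer, and the labels' protocols a 10x 3' v2 kit. Build mm10 and the tools Cell Ranger and Seurat come from the submitters' processing notes. The sources used here do not say whether intronic reads were counted. The genes and lists were chosen with earlier results of these data known.

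Barcodes needed 500 UMIs, 250 genes and a mitochondrial share of no more than 20%. This left 9174 Crtc2-/- and 9612 Crtc2+/+ barcodes. Scrublet (scanpy 1.11.5) called and removed 273 (2.98%) and 263 (2.74%) doublets, below the expected 7.34% and 7.69%, so missed doublets can remain. In the hepatocyte gate it removed 6 of 245 and 15 of 285. The libraries shared 29 barcode sequences, 0 of them in the hepatocyte gates.

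Other gates needed at least 3 UMIs of T cell (Cd3d, Cd3e, Cd3g), 3 of B cell (Cd79a, Cd79b, Ms4a1), 10 of macrophage (C1qa, C1qb, C1qc), 20 of neutrophil (S100a8, S100a9), 4 of endothelial (Pecam1, Cdh5, Kdr, Ptprb, Stab2), 3 of plasmacytoid dendritic (Siglech) and 4 of cholangiocyte genes (Epcam, Krt19, Krt7, Cldn4), and held barcodes that passed exactly 1 of them and not the hepatocyte gate. Counts were summed per gate. Levels carry exact Poisson, shares exact Clopper-Pearson and ratios exact conditional intervals. A sum of 0 has a floor of 3 counts per gate, and a share of 0 a floor of 3 barcodes. No test was made, with 1 library per genotype. Ratios and intervals were tested on simulated counts. Coordinates are from GENCODE M21 (GRCm38), which held 99.8% of the 32285 feature identifiers. The 10 genes were all named, with up to 4 members per list with the largest ratios and a few others chosen after their values were seen. Alternatives changed the gates, filters, denominator, pseudocount and thinning. Those using a gate of at least 1% of UMIs, the check genes as denominator, or leaving out the highest barcode were chosen after seeing the data.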

Additional observations from a re-analysis of the deposited data

Results flagged for a closer look

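The Cyp2a pair ran in opposite directions along the keratin split in the libraries. The ratio of keratin-high over keratin-low CPM was 4.74 in the Crtc2-/- and 0.179 in the Crtc2+/+ library for Cyp2a4, and 2.28 and 0.282 for Cyp2a5. With 1 library per genotype the difference between these ratios was not tested. For Cyp2a4 the Crtc2+/+ side rests on 32 keratin-high and 33 keratin-low UMIs. The Cyp2a5 log2 ratio of the Crtc2-/- library was -0.32 with a hepatocyte gate of at least 100 UMIs, and the Cyp2a4 log2 ratio of the Crtc2+/+ library was 0.82 with the split at 2 keratin UMIs.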

How the results depend on the processing

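Between genotypes, the number of P450 genes called higher ran between 2 and 4 over the 14 alternatives (4 as reported), with 2 among keratin-low barcodes only, and the number lower between 2 and 3. The calls of Cyp2a4, Cyp2a5 and Cyp2e1 held in all 14, that of Cyp3a11 in 13, of Cyp7b1 in 12, of Cyp2f2 in 10 and of Cyp2d26 in 9. Cyp3a11 and Cyp7b1 had under 20 UMIs among keratin-low barcodes. The cause of the other lost calls was not tested.

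The keratin split was less stable. In the Crtc2-/- library, 2 P450 genes higher and 0 lower in keratin-high barcodes became 1 and 4 with a hepatocyte gate of at least 100 UMIs, 1 and 2 with at least 1% of UMIs, and 0 and 2 with the mean of per-barcode CPM. The number lower became 3 without barcodes that pass another gate, and 1 with a pseudocount of 1 CPM or per UMI of the check genes. The number higher became 4 with keratin at least 2 UMIs. In the Crtc2+/+ library, 1 higher and 4 lower became 0 and 2 with the 100 UMI gate, 0 were higher with at least 1% of UMIs, and 2 were lower with keratin at least 2 UMIs or at least 4 per 10000 UMIs. The log2 ratio turned to -0.0187 for Cyp7b1 in the Crtc2-/- library with keratin at least 4 per 10000, and to 0.82 for Cyp2a4 in the Crtc2+/+ library with keratin at least 2. P450 genes called over the T cell gate in the Crtc2-/- library numbered 8 with a pseudocount of 1 CPM. For most alternatives in this section the share of all genes called is not given, so those counts of P450 genes cannot be set against all genes. Co-detection in the Crtc2+/+ gate was 2.22% without thinning, against 0% with it. Among keratin-low barcodes 1170 of 6229 genes (18.8%) differed by at least 2-fold between genotypes. Without a minimum of UMIs it was 2146 of 14531 (14.8%). The causes were not tested. No paired analysis was possible because each genotype has 1 library.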
